A study of Mus musculus with 9 samples.

Results

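MS1 is a mouse line of pancreatic endothelium. The comparison described here set MS1 cells labelled as expressing TAZ4A against control MS1 cells, 6 of the 9 libraries of the series, 3 in each group. Genes were tested when 3 or more of those 6 libraries reached 0.5 CPM. This held for 13048 of the 23744 genes in the table, and 360 of these passed that filter through the libraries of a single group only. For those 360 the direction of change was a condition of their being tested, so a p-value is no support for it. Tested genes below whose values in 1 group all lie under 0.5 CPM are among them, also where this is not repeated. The counts and shares of the gene lists include such genes. Control cells carried the lentiviral backbone pCDH-puro, and the other cells carried pCDH-TAZS4A. The labels do not give the promoter of the insert, the species of the TAZ sequence, or whether a line was a clone or a pool. Nothing in them shows that samples of 1 group were grown as separate cultures. The p-values below therefore measure spread between these samples, which may be technical. The values are per gene, in reads over a library size scaled by the authors (CPM), given as mean ± SD over n = 3 libraries. Each log2 fold change was computed from log2(CPM + 0.5), and is given with its standard error, and this scale understates the change of low genes. The words rose and fell are kept for genes with a Benjamini-Hochberg adjusted p under 0.05 in limma.

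The gene Wwtr1 encodes TAZ, a co-activator of transcription that does not bind DNA itself. It is held in the cytoplasm when the LATS kinases of the Hippo pathway phosphorylate its serines, and in the nucleus it works with the TEAD proteins, which bind DNA and drive genes such as Ccn1, Ankrd1 and Amotl2. Serine-to-alanine mutants of TAZ escape this control. In blood vessels TAZ and its relative YAP are known for their part in sprouting, in the response to flow and in the stiffness of the matrix.

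Between 22817562 and 35491338 reads per library were assigned to genes, so that 3 reads, the level that a count of 0 still allows, stood for 0.0849 to 0.134 CPM. This floor covers counting error only. Within a group the log2 values of the libraries correlated across genes at 0.996 to 0.999, and between the groups at 0.970 to 0.974. Of 12 endothelial markers, 11 were at 1 CPM or more in both groups. Their summed level was 10124 to 10410.1 CPM in control against 6909.6 to 7093 CPM in the libraries labelled TAZ4A, and 11 of the 12 fell. Cldn5, a claudin of tight endothelium and the other one, held 1 and 0 reads over the 3 control libraries and the 3 libraries labelled TAZ4A. In cultures measured in bulk, fewer cells of a type and less RNA per cell cannot be told apart. The acinar and islet markers of the pancreas summed to no more than 0.415 CPM in any of the 6 libraries.

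Wwtr1 itself (ENSMUSG00000027803.10, chromosome 3, 57455649 to 57575910, mm10) stood at 524, 519 and 552 CPM in control and at 309, 309.9 and 323 CPM in the libraries labelled TAZ4A (log2 fold change -0.76 ± 0.04, adjusted p = 2.5e-10). The groups did not overlap, and the libraries labelled TAZ4A were the lower ones, which goes against the label if the insert was of mouse sequence. A construct of another species, or without the parts of the mouse transcript that were counted, would not be seen in this value. Every direction below is therefore that of the libraries labelled TAZ4A. Yap1 stood at 388, 392 and 398 CPM in control and at 369.6, 363 and 366 CPM in the libraries labelled TAZ4A (log2 fold change -0.10 ± 0.04, adjusted p = 0.046), a small difference at the edge of the test. Its adjusted p was 0.076 without control replicate 3 and 0.12, 0.15 and 0.094 without replicates 1, 2 and 3 labelled TAZ4A, and under quantile normalization the log2 fold change was 0.01. Among the DNA-binding partners Tead1 rose from 159 ± 5.61 to 221 ± 10.3 CPM, Tead2 from 60.03 ± 2.14 to 73.5 ± 3.66 CPM and Tead3 from 2.81 ± 0.127 to 6.9 ± 0.525 CPM. Tead4 fell from 21.5 ± 0.43 to 17.6 ± 0.813 CPM. Camta1, which the third group of the series carries as a fusion, stood at 5.8, 4.19 and 4.7 CPM in control and at 5.79, 5.26 and 5.43 CPM in the libraries labelled TAZ4A and did not pass the test (log2 fold change 0.16, 95% interval -0.07 to 0.39). Without control replicate 1 it did, at a log2 fold change of 0.28 and an adjusted p of 0.028.

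Several canonical TAZ targets are known to carry the TEAD core sequence GGAATG, or CATTCC on the other strand, close to their start sites. Of the 25 tested genes on a list of YAP/TAZ-TEAD targets 9 rose by 2-fold or more, and 7 of these had a promoter in the RefSeq table (GRCm38.p6). In the 250 bases before a start site 4 of the 7 held the sequence, and F3, Lats2, with its 2 start sites, and Wwc1 did not. The 4 are shown because they are the members in which the letters and the change of expression meet. The stretches run 5′ to 3′ on the strand of the gene, with the match in capitals.
Ankrd1, chr19:36119927-36120089, minus strand: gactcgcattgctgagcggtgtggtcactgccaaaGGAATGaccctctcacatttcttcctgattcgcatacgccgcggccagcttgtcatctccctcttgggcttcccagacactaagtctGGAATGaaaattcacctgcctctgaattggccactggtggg
Ccn1, chr3:145650048-145650123, minus strand: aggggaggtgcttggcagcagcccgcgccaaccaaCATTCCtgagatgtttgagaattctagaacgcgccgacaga
Amotl2, chr9:102717704-102717779, plus strand: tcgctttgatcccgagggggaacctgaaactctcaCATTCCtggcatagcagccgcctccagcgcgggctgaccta
Axl, chr7:25788926-25788983, minus strand: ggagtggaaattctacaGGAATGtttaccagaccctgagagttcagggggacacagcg
Ankrd1 held 2 matches, which begin 210 and 123 bases before its start, and the single matches of Ccn1, Amotl2 and Axl begin 103, 65 and 233 bases before theirs. In windows of 300 bases, 250 before and 50 after a start, GGAATG on either strand was in 45% of the 20 promoters of the target list, in 19% of the 596 promoters of genes that rose by 2-fold or more, in 12.6% of the 182 of genes that fell by as much, and in 12.4% of the 12335 promoters of all tested genes. Without the interferon and chemokine genes, 18.6% of the 548 promoters of the risers held it. The AP-1 sequence TGANTCA was in 11.6% of the promoters of risers, 10.4% of those of fallers and 5.2% of those of tested genes. A pair of GAAA runs with any 2 bases between them, the core of the interferon-stimulated response element, was in 9.56%, 1.65% and 3.08% in the same order, and in 5.84% for risers off the interferon and chemokine lists. The table matched 9638 of the tested genes, many with several start sites, and a match is no evidence of binding.

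Across the transcriptome the change was broad and mostly small. Of the 13048 genes, 7471 (57.3%) were called, 3619 higher (27.7%) and 3852 lower (29.5%), and 62.2% had libraries that did not overlap between the groups. Standard errors of the log2 fold changes had a median of 0.06, and 73.6% of the called genes moved by less than 1.5-fold. Scaling all libraries to the same sum moved the higher share of the calls from 48.4% to 59.9%, and the TPM values gave 59.4%, so the balance of the small changes is not fixed by these data. Changes of 2-fold or more were found for 849 genes (6.51%), 650 higher (4.98%) and 199 lower (1.53%). Genes past 2-fold were thus mostly higher, 76.6% of them, or 64.9% under quantile normalization. At 4-fold or more 164 rose and 21 fell, at 8-fold 56 and 3, and at 16-fold 17 and 0. Of the 650 risers 56 were on the interferon and chemokine lists, and none of the fallers, so 594 rises of 2-fold or more lay outside them. The 2 lists hold 70 and 46 chosen entries, and whether genes off them respond to interferon was not tested.

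**Figure D1:**
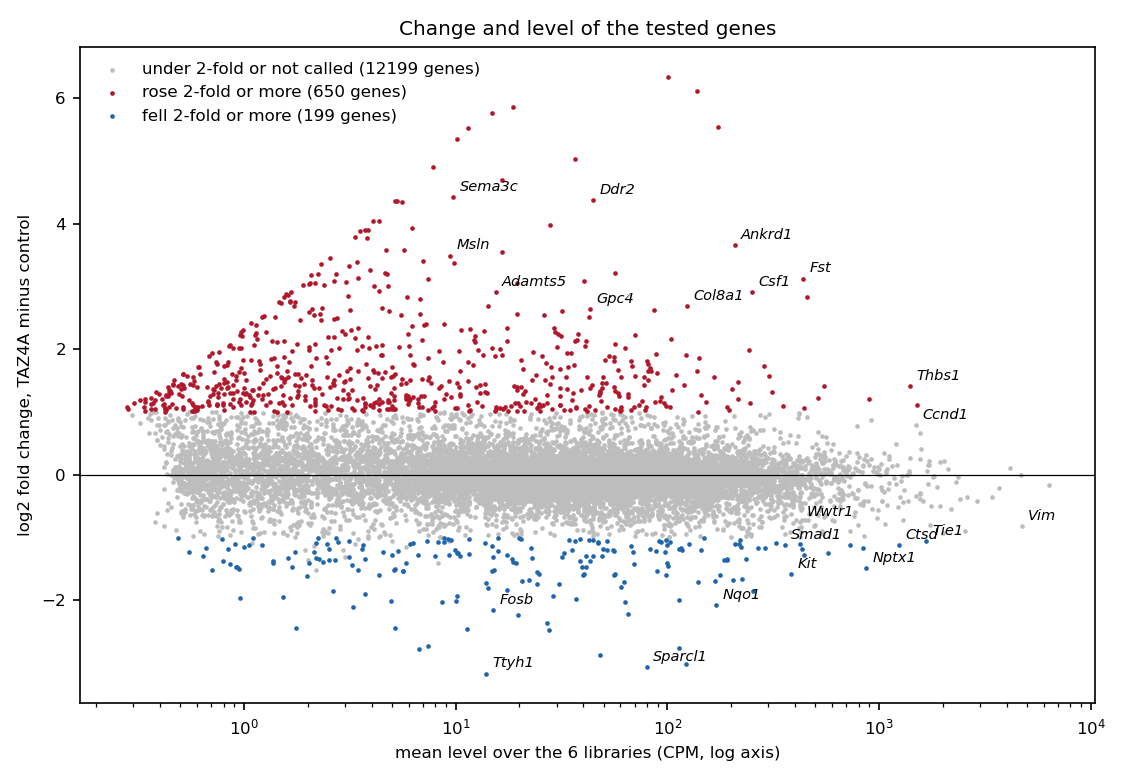
Log2 fold change of each tested gene (vertical axis, libraries labelled TAZ4A minus control, on the log2(CPM + 0.5) scale) against its mean level over the 6 libraries in CPM (horizontal log axis). Red points are the 650 genes that rose and blue points the 199 that fell by 2-fold or more, grey points are all others, and the red cloud reaches farther from 0 and lies mostly at low levels.

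Rises were concentrated among genes of low level, and falls were not. Of the 1018 genes with a mean under 1 CPM 12.8% rose by 2-fold or more, as did 12.7% of the 1783 genes between 1 and 5 CPM, but only 1.35% of the 2370 genes between 100 and 500 CPM. Falls took between 1.14% and 2.37% of the genes in every range of level. The filter on low values lets in a gene that is low in one group when it is high in the other, so a rise of some genes at the low end is a condition of their being tested. In reads, the risers went from a summed 9700.0 to 29167 CPM and the fallers from 23975 to 9646 CPM. At the extreme, 55 genes had no more than 3 reads over the 3 control libraries together and at least 0.5 CPM in the libraries labelled TAZ4A, 51 of them protein coding and 15 without any control read. No gene met the same rule in the other direction. Besides the secreted and interferon-type genes these included Panx3, a pannexin channel protein with 0 and 474 reads in control and TAZ4A libraries, at least 44.6-fold higher when each control library is set to 3 reads. Insc, an adaptor that orients the spindle, had 0 and 324 reads (at least 30.5-fold), and Syt14, a synaptotagmin, 0 and 315 reads (at least 29.6-fold). Aldh1a1, a retinaldehyde dehydrogenase, had 2 and 829 reads, Ptchd4, a relative of the Hedgehog receptor, 2 and 758 reads, and Ms4a4d, a membrane protein of the MS4A family, 1 and 423 reads. Genes of cornified skin were among them as well, with 0 and 140 reads for Crct1, 2 and 124 reads for Lce1g and 2 and 108 reads for Lce1h. Panx3, Insc, Syt14, Ptchd4, Ms4a4d and the skin genes were picked out after their values were seen.

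**Figure D2:**
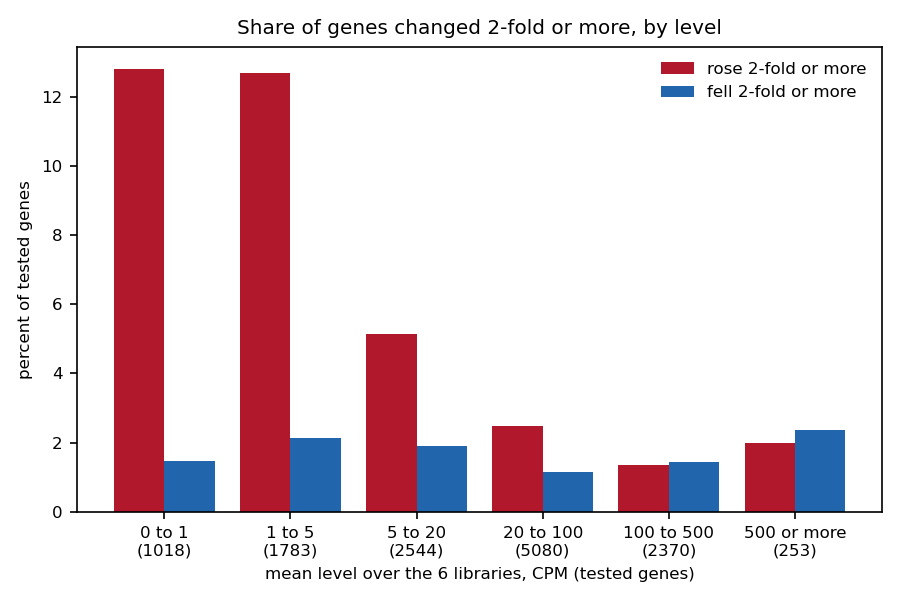
Percent of tested genes that rose (red) or fell (blue) by 2-fold or more, by mean level over the 6 libraries in CPM, with the number of tested genes in brackets. The red bars drop from 12.8% under 1 CPM to 1.35% between 100 and 500 CPM, and the blue bars stay between 1.14% and 2.37%.

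The following genes were among the 10 that gained or the 10 that lost the most CPM. Thbs1, the matrix glycoprotein thrombospondin 1, stood at 783, 717 and 804 CPM in control and at 2064, 2027 and 2029 CPM in the libraries labelled TAZ4A (log2 fold change 1.41 ± 0.05, adjusted p = 1.8e-13). Fst, follistatin, the secreted trap of activins, stood at 87, 90.1 and 91 CPM in control and at 768, 775 and 806 CPM in the libraries labelled TAZ4A (log2 fold change 3.12 ± 0.04, adjusted p = 6.5e-18). Both were far higher in each library labelled TAZ4A than in any control library, though the rule for naming them required that the groups not overlap. Procr, the endothelial receptor of protein C, rose from 1209.7 ± 56.5 to 1907 ± 30.5 CPM, Nid1, the basement membrane linker nidogen, from 646 ± 57.9 to 1184 ± 33.2 CPM, and Ccnd1, cyclin D1, from 1094 ± 32.8 to 1892 ± 8.52 CPM. Itpripl2 rose from 1362 ± 70.7 to 1797 ± 55.3 CPM, a small change of a gene with many reads (log2 fold change 0.40). On the other side Vim, the intermediate filament vimentin, stood at 5699.7, 6433 and 5987 CPM in control and at 3441, 3452 and 3318 CPM in the libraries labelled TAZ4A (log2 fold change -0.83 ± 0.05, adjusted p = 1.9e-10). Serinc3, a membrane protein that limits retroviral infectivity, fell from 2633 ± 70.7 to 1377 ± 24.6 CPM, and Fkbp1a, the prolyl isomerase that binds FK506, from 2218 ± 91 to 1277 ± 25.9 CPM. Ctla2a, a cathepsin inhibitor, fell from 2605 ± 179.8 to 1785 ± 43.2 CPM, and Nptx1, the secreted neuronal pentraxin, from 1278 ± 16.9 to 455 ± 6.92 CPM. Actb, the cytoplasmic actin often used as a reference, fell from 3852 ± 424 to 3008 ± 74.9 CPM (log2 fold change -0.35).

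**Figure D3:**
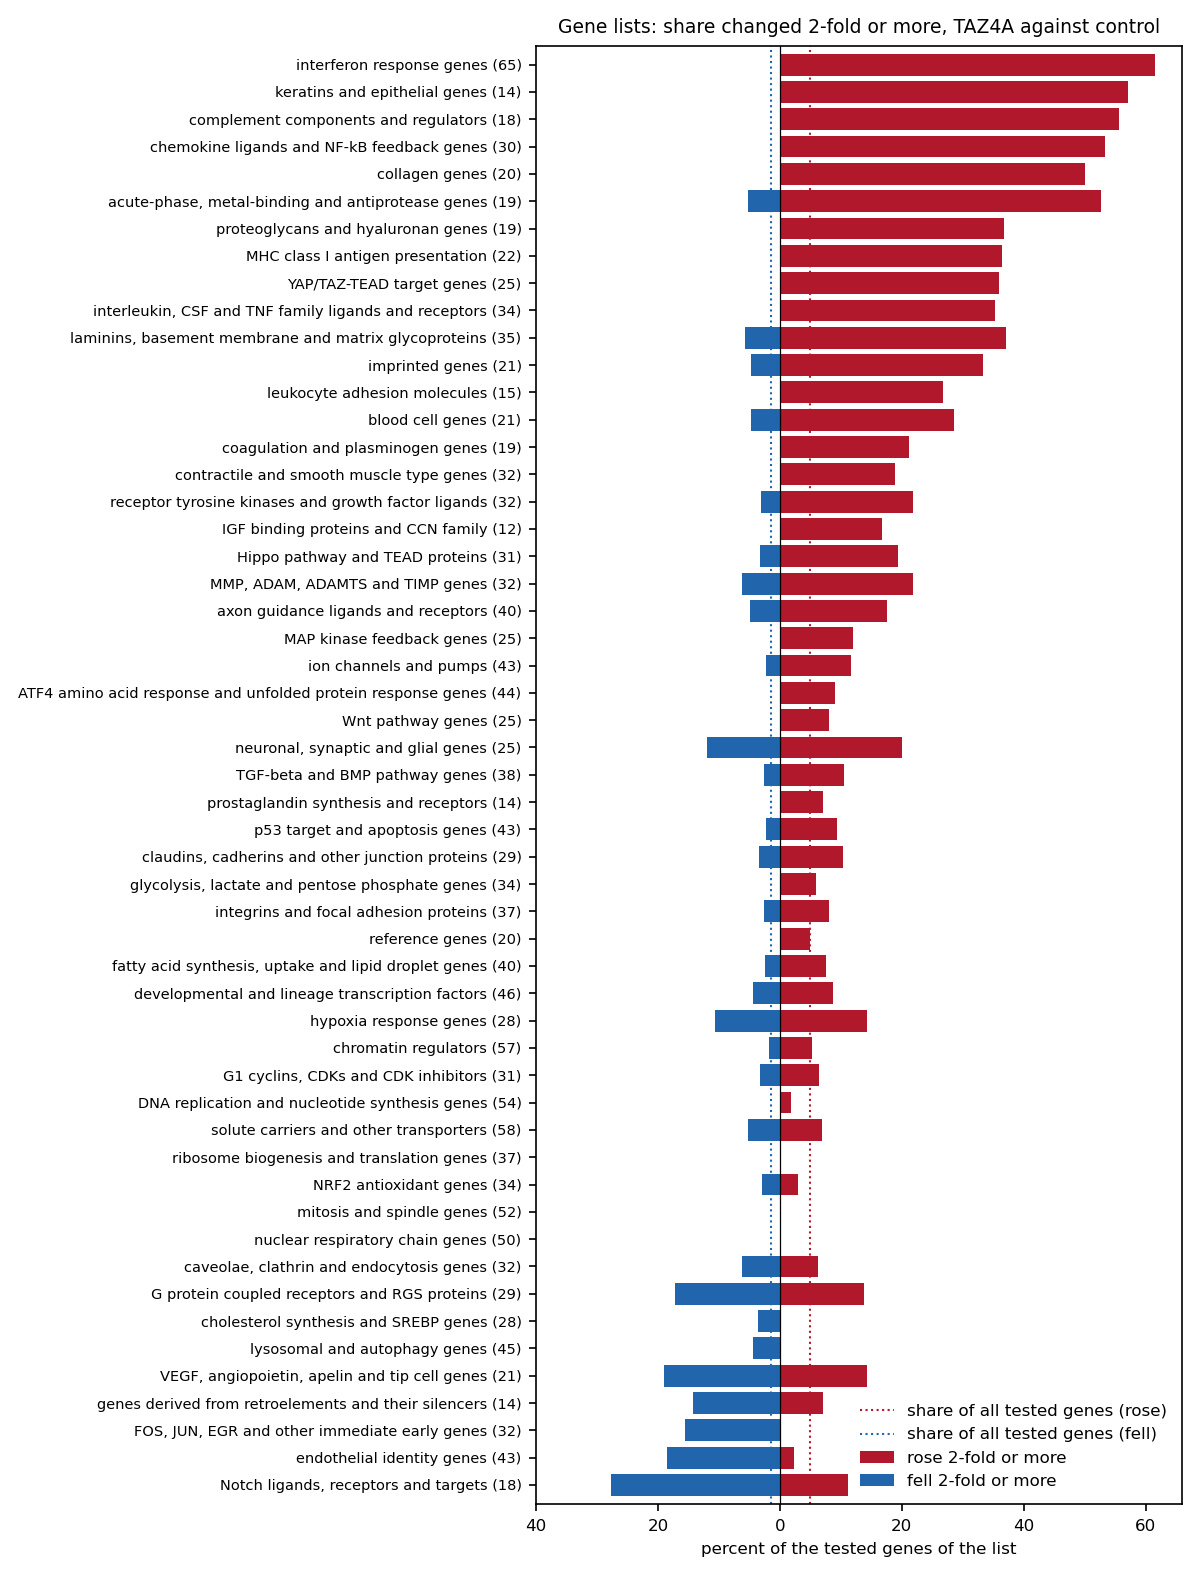
For the gene lists shown, the percent of the tested genes of each (number in brackets) that rose (red, to the right) or fell (blue, to the left) by 2-fold or more, with dotted lines at the shares of all tested genes, 4.98% and 1.53%. The longest red bars belong to the interferon, epithelial, complement and chemokine lists and the longest blue bars to the Notch, VEGF and endothelial lists.

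On the YAP/TAZ-TEAD target list 19 of 25 tested members rose (76%) and 2 fell (8%), and 9 rose and 0 fell by 2-fold or more (36% against 4.98% of all genes), with a median log2 fold change of 0.59 against -0.01 over all genes. Here and for the lists below, the shares of risers and fallers in brackets are to be read against the 27.7% and 29.5% of all tested genes. Amotl2, which binds and retains YAP and TAZ, stood at 67.1, 63 and 69.1 CPM in control and at 212, 212 and 202 CPM in the libraries labelled TAZ4A (log2 fold change 1.65 ± 0.05, adjusted p = 4.3e-14). Nuak2, a kinase of the AMPK family, rose from 6.86 ± 0.494 to 19.2 ± 1.25 CPM, and the tissue factor gene F3 from 0.42 ± 0.0164 to 2.23 ± 0.225 CPM. Ccn2, another widely used target, had 386 ± 11.7 CPM in control against 395 ± 4.72 CPM in the libraries labelled TAZ4A and was not called (95% interval of the log2 fold change -0.05 to 0.13). Birc5 was not called either (log2 fold change 0.04), and Cdc20, a mitotic activator on the list, fell from 351 ± 19.1 to 253 ± 9.76 CPM. The target genes thus split, with Ankrd1 and Axl past 8-fold and Ccn2 near its control level.

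Among the proteins of the Hippo pathway 19 of 31 tested members rose (61.3%) and 8 fell (25.8%), and 6 rose and 1 fell by 2-fold or more. Lats2, a LATS kinase that inhibits YAP and TAZ, rose from 92.5 ± 7.06 to 185 ± 4.74 CPM, and so did Wwc1, the scaffold KIBRA that activates the LATS kinases, from 21.9 ± 1.31 to 78.9 ± 1.72 CPM. Ajuba, which restrains those kinases, rose from 77 ± 2.79 to 108 ± 2.4 CPM. The giant cadherins at the top of the pathway moved in both directions. Fat1 stood at 38.1, 29.6 and 44.1 CPM in control and at 128, 122 and 126 CPM in the libraries labelled TAZ4A (log2 fold change 1.76 ± 0.14, adjusted p = 5.4e-05). Fat4 stood at 21.9, 16 and 24.4 CPM in control and at 9.92, 8.57 and 8.66 CPM in the libraries labelled TAZ4A (log2 fold change -1.14 ± 0.13, adjusted p = 3.3e-05), so the libraries labelled TAZ4A were above control for the former and below it for the latter. Dchs1, the ligand of Fat4, rose from 7.17 ± 1.97 to 14.4 ± 0.90 CPM. Stk4, the upstream kinase MST1, rose from 56.9 ± 0.924 to 97.5 ± 1.46 CPM. The kinases Taok2 and Map4k4 fell from 211 ± 2.59 to 141 ± 4.02 CPM and from 382 ± 15 to 293 ± 0.535 CPM.

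**Figure D4:**
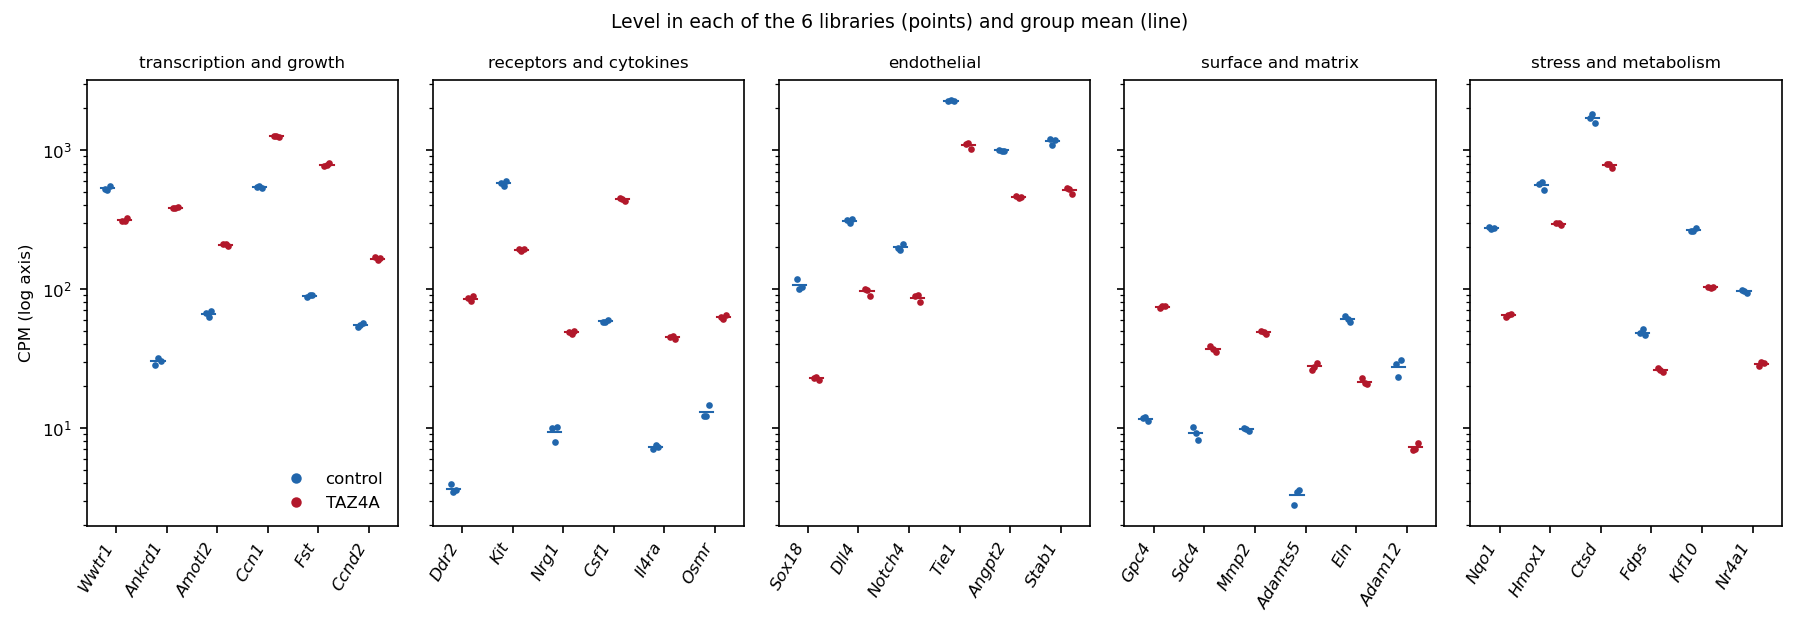
CPM (log axis) of 30 genes in each of the 6 libraries, control in blue and libraries labelled TAZ4A in red, points for libraries and lines for group means. For every gene plotted the libraries of the 2 groups do not overlap, which the rule that named most genes required and which held for 62.2% of all tested genes. The points of a group lie close together against the distance between the groups.

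Of the endothelial identity genes 6 of 43 tested members rose (14%) and 34 fell (79.1%), and 1 rose and 8 fell by 2-fold or more (18.6% lower against 1.53% of all genes), with a median of -0.44. Stab1, a scavenger receptor of sinusoids, stood at 1211, 1086 and 1179 CPM in control and at 535, 527 and 485 CPM in the libraries labelled TAZ4A (log2 fold change -1.17 ± 0.05, adjusted p = 6.2e-12). Plvap, which forms the diaphragms of fenestrae, stood at 558, 588 and 594 CPM in control and at 269, 282 and 257 CPM in the libraries labelled TAZ4A (log2 fold change -1.11 ± 0.05, adjusted p = 4.2e-12). Adgrl4, an adhesion receptor of sprouting vessels, fell from 267 ± 8.42 to 88.2 ± 2.07 CPM, Calcrl, the receptor of adrenomedullin, from 115 ± 4.2 to 50.3 ± 2.76 CPM, and Rasip1, which opens vessel lumens, from 198 ± 2.9 to 98.1 ± 2.81 CPM. Tie1, a receptor kinase of the angiopoietin system, stood at 2266, 2284 and 2238 CPM in control and at 1099.9, 1125 and 1023 CPM in the libraries labelled TAZ4A (log2 fold change -1.06 ± 0.04, adjusted p = 3.3e-12). Some members went the other way: Flt4, the receptor of VEGF-C, rose from 98.6 ± 5.35 to 135 ± 4.29 CPM, Tm4sf1, a tetraspan protein of endothelial filopodia, from 631 ± 42 to 807 ± 11.6 CPM, and Stab2, the relative of Stab1 that sinusoids also carry, from 0.211 ± 0.0845 to 1.62 ± 0.242 CPM.

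Of 9 lymphatic markers 6 were tested, and all 6 rose (100% against 27.7% of all tested genes), 1 of them by 2-fold or more. Under quantile normalization 4 of the 6 rose. The summed level of the 9 markers went from 367.8 to 398.4 CPM in control to 651.8 to 668.7 CPM in the libraries labelled TAZ4A. Nrp2, a co-receptor of VEGF-C, stood at 133, 125 and 135 CPM in control and at 301, 295 and 309 CPM in the libraries labelled TAZ4A (log2 fold change 1.20 ± 0.05, adjusted p = 1.1e-12). Lyve1, the hyaluronan receptor, which sinusoids carry as well, rose from 117 ± 6.58 to 180.1 ± 4.29 CPM. Prox1, the factor that defines lymphatic identity, had 3 and 2 reads in control and TAZ4A libraries, at the floor in both groups.

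The Notch pathway, in which ligands on one cell trigger the cleavage of receptors on the next, was divided. Of its genes 7 of 18 tested members rose (38.9%) and 9 fell (50%), and 2 rose and 5 fell by 2-fold or more. Ligand Dll1 fell from 46.2 ± 2.52 to 22.1 ± 0.286 CPM, receptor Notch4, which is particular to endothelium, from 199.99 ± 11.5 to 86.7 ± 5.61 CPM, target Hes1 from 172 ± 7.84 to 79.8 ± 1.07 CPM, and the glycosyltransferase Mfng from 285 ± 10.05 to 159 ± 6.08 CPM. Rbpj, the DNA-binding partner of cleaved Notch, rose from 43.3 ± 0.427 to 82.3 ± 3.22 CPM, and receptor Notch3, better known from mural cells, stood at 0.536, 0.405 and 0.485 CPM in control and at 4.89, 4.9 and 5.25 CPM in the libraries labelled TAZ4A (log2 fold change 2.50 ± 0.11, adjusted p = 1.1e-11). Notch1 had a log2 fold change of -0.32 and Notch2 of 0.25.

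In the VEGF, angiopoietin and apelin systems 7 of 21 tested members rose (33.3%) and 13 fell (61.9%), and 3 rose and 4 fell by 2-fold or more. Angpt2, the destabilising ligand of the receptor Tek, stood at 1004, 989 and 992 CPM in control and at 464, 455 and 459.9 CPM in the libraries labelled TAZ4A (log2 fold change -1.11 ± 0.04, adjusted p = 5.6e-13). The VEGF receptor Kdr fell from 568 ± 41.1 to 366 ± 1.69 CPM, its co-receptor Nrp1 from 45.5 ± 1.68 to 27.6 ± 1.26 CPM and Ramp2, the partner of Calcrl, from 246 ± 14.8 to 144 ± 4.1 CPM. Other ligands rose, Vegfd from 0.583 ± 0.119 to 2.51 ± 0.234 CPM, Adm, adrenomedullin, from 118 ± 3.78 to 179.7 ± 4.11 CPM, and Apln, apelin, from 1879 ± 32.5 to 2174 ± 23.2 CPM. Kit, the receptor of stem cell factor, stood at 579, 551 and 598 CPM in control and at 193, 188 and 194 CPM in the libraries labelled TAZ4A (log2 fold change -1.58 ± 0.04, adjusted p = 2.9e-14). Its ligand Kitl fell from 198 ± 12.9 to 155 ± 3.18 CPM.

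Of the junction genes 8 of 29 tested members rose (27.6%) and 13 fell (44.8%), so that the share of rises was that of all tested genes (27.7%). Cgn, the tight junction protein cingulin, stood at 3.17, 3.93 and 3.61 CPM in control and at 20.6, 19.1 and 19.8 CPM in the libraries labelled TAZ4A (log2 fold change 2.32 ± 0.08, adjusted p = 6.0e-13). Cldn12, a claudin, stood at 39, 41.4 and 40.3 CPM in control and at 126, 125 and 131 CPM in the libraries labelled TAZ4A (log2 fold change 1.65 ± 0.05, adjusted p = 3.2e-14). Jam2, a junctional adhesion molecule, rose from 0.183 ± 0.0367 to 2.52 ± 0.451 CPM, and the N-cadherin gene Cdh2 from 26.8 ± 0.279 to 49.5 ± 0.866 CPM. The VE-cadherin gene Cdh5 fell from 1493 ± 147 to 1106 ± 18.4 CPM and Cdh13 from 167 ± 5.1 to 90.2 ± 1.06 CPM. Among molecules that capture leukocytes, several that cytokines induce rose and several constitutive ones fell. Sele, E-selectin, stood at 40.2, 37.3 and 39.5 CPM in control and at 126, 117 and 127 CPM in the libraries labelled TAZ4A (log2 fold change 1.65 ± 0.05, adjusted p = 7.4e-14). Vcam1 rose from 114 ± 5.4 to 316 ± 0.431 CPM, Icam1 from 29.4 ± 1.36 to 58 ± 1.21 CPM and the hyaluronan receptor Cd44 from 224 ± 4.53 to 482 ± 12.2 CPM. Icam2 fell from 190.3 ± 7.77 to 122 ± 3.34 CPM, Mcam from 159 ± 3.72 to 99.8 ± 2.72 CPM and Pecam1 from 3321 ± 45.4 to 2483 ± 26.2 CPM. The fall of Pecam1 turned into a log2 fold change of 0.02 under quantile normalization. Of the 15 tested members of that list 8 rose (53.3%) and 6 fell (40%).

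In the coagulation and plasminogen list 12 of 19 tested members rose (63.2%) and 6 fell (31.6%). F5, coagulation factor V, stood at 0.179, 0.116 and 0.182 CPM in control and at 6.21, 6.17 and 5.99 CPM in the libraries labelled TAZ4A (log2 fold change 3.33 ± 0.12, adjusted p = 3.3e-13). F5 passed the filter through the libraries labelled TAZ4A alone, so its direction was set by the filter. F8, factor VIII, fell from 699 ± 97.7 to 374 ± 18 CPM, the plasminogen activators Plat and Plau from 261 ± 6.74 to 153 ± 1.76 CPM and from 2063 ± 46.6 to 1452 ± 7.0 CPM, and Plaur, the receptor of Plau, from 260.2 ± 5.22 to 201 ± 8.97 CPM. The protease inhibitor Tfpi2 rose from 8.24 ± 0.52 to 15.1 ± 0.788 CPM.

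Collagens leaned higher as a group. Of these 14 of 20 tested members rose (70%) and 2 fell (10%), and 10 rose and 0 fell by 2-fold or more (50% against 4.98% of all genes), with a median of 0.96. Col4a5, a chain of the minor network of the basement membrane, stood at 20.05, 20.5 and 23.3 CPM in control and at 92.8, 92.5 and 90.2 CPM in the libraries labelled TAZ4A (log2 fold change 2.09 ± 0.06, adjusted p = 2.8e-14). Its partner Col4a6 rose from 0.0794 ± 0.0187 to 0.751 ± 0.0566 CPM. The chains of the main network fell together, Col4a1 from 3302 ± 111 to 1765 ± 71.6 CPM and Col4a2 from 1611 ± 76.2 to 973 ± 49.1 CPM. Fibrillar and associated collagens rose, with Col5a1 from 84.5 ± 3.95 to 154 ± 6.04 CPM, Col6a1 from 10.48 ± 0.486 to 28.5 ± 1.44 CPM, Col6a3 from 2.65 ± 0.53 to 8.45 ± 0.238 CPM, Col7a1, the anchoring fibril collagen, from 12.7 ± 1.08 to 23.6 ± 1.88 CPM and Col3a1 from 1.18 ± 0.378 to 4.07 ± 0.457 CPM. Col14a1, which binds fibrils, had 2 and 388 reads in control and TAZ4A libraries. Col4a6, Col14a1 and Col12a1, the last with 1 control read, passed the filter through the libraries labelled TAZ4A alone. Their rises were a condition of their being tested, and they are among the 10 of 2-fold or more. Of 10 fibroblast markers, which include Col1a1, Col1a2 and Col3a1, 5 were tested, of which 4 rose (80%) and 1 fell (20%). The summed level of the 10 markers was 7.43 to 9.15 CPM in control against 15.95 to 17.42 CPM in the libraries labelled TAZ4A. Dcn and Pdgfra, described below, were with Col1a1 and Col3a1 the 4 that rose, Pi16 fell, and Lum, Dpt and Dpep1 held between 0 and 2 reads in a group. Dcn, without a control read, passed the filter through the libraries labelled TAZ4A alone. The part of the fibroblast markers in the collagen values was not tested.

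Other matrix genes followed the same split, with 20 rises (57.1%) and 10 falls (28.6%) among 35 tested members, of which 13 rose and 2 fell by 2-fold or more. Nid2 stood at 0.804, 0.925 and 0.94 CPM in control and at 5.76, 5.46 and 6.17 CPM in the libraries labelled TAZ4A (log2 fold change 2.18 ± 0.11, adjusted p = 3.2e-11), like Nid1 a linker of laminin and collagen IV. Agrn, the heparan sulfate proteoglycan agrin, rose from 9.58 ± 0.263 to 32 ± 0.371 CPM, Ltbp1, which anchors latent TGF-beta, from 11.7 ± 1.18 to 36 ± 0.304 CPM, and Lamb1, a laminin chain, from 153 ± 7.25 to 339 ± 4.99 CPM. Spon2, a secreted pattern recognition protein, stood at 0.179, 0.289 and 0.091 CPM in control and at 7.13, 6.82 and 6.08 CPM in the libraries labelled TAZ4A (log2 fold change 3.39 ± 0.13, adjusted p = 1.1e-12). Spon2 passed the filter through the libraries labelled TAZ4A alone, so its direction was set by the filter. Fn1, fibronectin, stood at 1025, 894 and 1105 CPM in control and at 584, 573 and 561 CPM in the libraries labelled TAZ4A (log2 fold change -0.81 ± 0.06, adjusted p = 1.3e-08). Eln, elastin, stood at 63.4, 61 and 58.2 CPM in control and at 23, 21.1 and 20.6 CPM in the libraries labelled TAZ4A (log2 fold change -1.48 ± 0.06, adjusted p = 1.3e-12). Both were lower in every library labelled TAZ4A than in any control library, though the rule for naming them required that the groups not overlap. Sparc, which binds collagen, fell from 2931 ± 93.3 to 2289 ± 20.4 CPM, or had a log2 fold change of 0.03 under quantile normalization, and Tnxb, tenascin X, from 18.9 ± 1.11 to 10.8 ± 0.849 CPM.

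**Figure D5:**
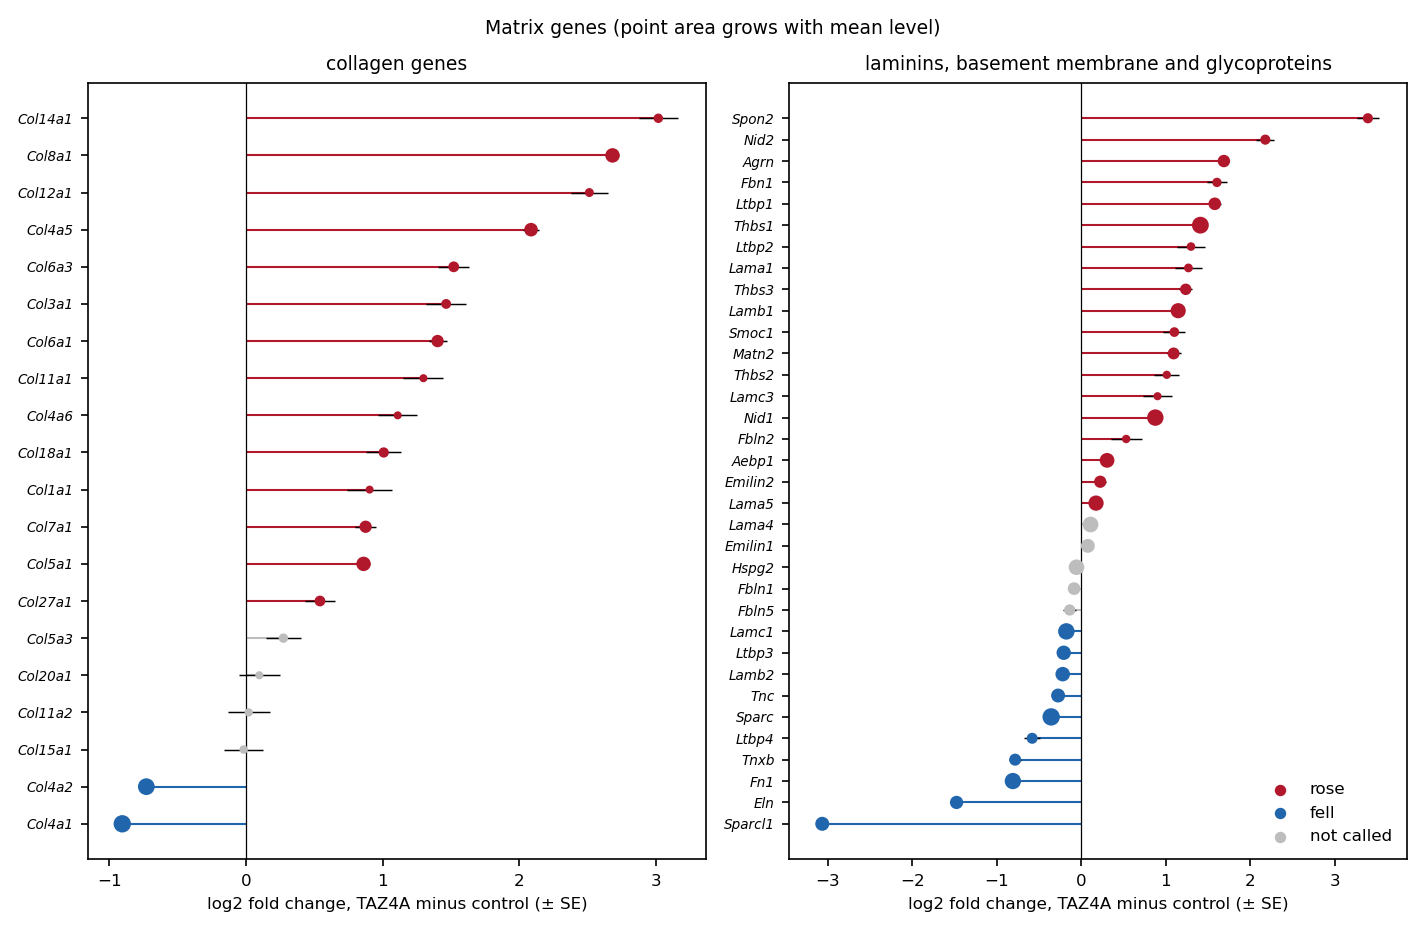
Log2 fold change ± SE of tested collagen genes (left) and of tested laminins, basement membrane and matrix glycoproteins (right), red where the gene rose, blue where it fell and grey where it was not called, with larger points for genes of higher mean level. Most points lie to the right, and Col4a1, Col4a2, Fn1, Sparc, Eln and Sparcl1 lie to the left.

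Of the proteoglycan and hyaluronan genes, which include secreted and cell surface proteins and enzymes, 15 of 19 tested members rose (78.9%) and 3 fell (15.8%), and 7 rose and 0 fell by 2-fold or more. Gpc4, a glypican, stood at 11.7, 11.9 and 11.2 CPM in control and at 72.6, 76 and 75.4 CPM in the libraries labelled TAZ4A (log2 fold change 2.64 ± 0.05, adjusted p = 4.9e-16). Sdc4, the syndecan of focal adhesions, stood at 10.1, 9.22 and 8.16 CPM in control and at 39.2, 36.7 and 35 CPM in the libraries labelled TAZ4A (log2 fold change 1.96 ± 0.08, adjusted p = 1.2e-12). Gpc6 rose from 3.55 ± 0.441 to 11.4 ± 0.265 CPM, Sdc1 from 37.6 ± 1.35 to 73.2 ± 3.29 CPM, Sdc2 from 20.1 ± 2.18 to 38.2 ± 1.23 CPM and Hs6st2, which sulfates heparan chains, from 15.7 ± 1.19 to 52.4 ± 2.63 CPM. Sdc3 fell from 36.2 ± 2.35 to 24.4 ± 2.14 CPM. Dcn, decorin, had 0 and 202 reads in control and TAZ4A libraries, at least 19-fold higher with 3 reads set for each control library.

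Enzymes that cut the matrix also moved, with 22 rises (68.8%) and 9 falls (28.1%) among 32 tested members, and 7 rose and 2 fell by 2-fold or more. Adamts5, an aggrecan-cutting protease, stood at 2.77, 3.44 and 3.58 CPM in control and at 26.2, 27.6 and 29.2 CPM in the libraries labelled TAZ4A (log2 fold change 2.91 ± 0.09, adjusted p = 6.3e-14). Mmp2, gelatinase A, stood at 9.96, 9.74 and 9.52 CPM in control and at 49.9, 49.2 and 47.3 CPM in the libraries labelled TAZ4A (log2 fold change 2.27 ± 0.06, adjusted p = 8.4e-15). Mmp13, a collagenase, rose from 0.103 ± 0.0868 to 3.34 ± 0.193 CPM, Mmp3, stromelysin, from 3.27 ± 0.51 to 8.39 ± 0.239 CPM, Mmp19 from 0.382 ± 0.161 to 2.72 ± 0.389 CPM, and Loxl4, a crosslinking oxidase, from 41.9 ± 1.95 to 121 ± 4.18 CPM. Adam12, a shedding enzyme, stood at 28.7, 23.3 and 30.8 CPM in control and at 6.98, 7.1 and 7.83 CPM in the libraries labelled TAZ4A (log2 fold change -1.84 ± 0.09, adjusted p = 2.3e-11). Adam19 and Adam15 fell from 208 ± 13.6 to 124 ± 0.044 CPM and from 178 ± 5.24 to 119 ± 2.94 CPM. All 11 tested genes whose symbols begin with Mmp were called, 9 higher (81.8%) and 2 lower (18.2%), or 7 and 2 under quantile normalization.

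Integrins and focal adhesion proteins showed no common direction, with 14 rises (37.8%) and 13 falls (35.1%) among 37 tested members, with a median of -0.02. Itgb5, a partner of the alpha v chain, rose from 2.92 ± 0.214 to 9.2 ± 0.795 CPM, Itgav itself from 127 ± 9.63 to 215 ± 9.35 CPM and Itga4 from 27 ± 2.57 to 51.7 ± 3.08 CPM. Itgb4, a laminin receptor chain, stood at 26.8, 26.1 and 26.8 CPM in control and at 10.1, 10.8 and 9.81 CPM in the libraries labelled TAZ4A (log2 fold change -1.34 ± 0.06, adjusted p = 1.6e-11). Its partner Itga6 fell from 553 ± 37 to 335 ± 8.49 CPM and Itgb3 from 268 ± 1.74 to 160.0 ± 2.48 CPM. Flnc, a filamin of muscle, rose from 179 ± 11.8 to 445 ± 22.9 CPM. The adaptor Tns1 fell from 315 ± 17.6 to 165 ± 3.3 CPM.

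Of the contractile and smooth muscle type genes 18 of 32 tested members rose (56.2%) and 7 fell (21.9%), and 6 rose and 0 fell by 2-fold or more. Zeb2, a repressor known from epithelial to mesenchymal transition, stood at 16, 16.5 and 17.3 CPM in control and at 51.1, 46.4 and 51.1 CPM in the libraries labelled TAZ4A (log2 fold change 1.55 ± 0.06, adjusted p = 9.7e-13). Nexn, an actin-binding protein, rose from 4.74 ± 0.423 to 11.2 ± 0.464 CPM, Pdgfra, the PDGF receptor of mesenchyme, from 2.85 ± 0.0877 to 8.73 ± 0.44 CPM, and Acta2, smooth muscle actin, from 0.237 ± 0.107 to 0.732 ± 0.0438 CPM. Srf, which drives actin genes, fell from 50.8 ± 3.5 to 41.1 ± 2.8 CPM. Of 10 smooth muscle and pericyte markers 4 were tested, and all 4 rose (100%). Cnn1, with 1 control read, and Acta2, under 0.5 CPM in every control library, passed the filter through the libraries labelled TAZ4A alone. Their rises were a condition of their being tested, and the 100% includes them. The summed level of the 10 markers was 2.86 to 3.57 CPM in control against 17.3 to 18.3 CPM in the libraries labelled TAZ4A, most of it from Cnn1 and Notch3. Rgs5, Kcnj8 and Cspg4, which define pericytes, held between 0 and 4 reads in a group. The part of such cells in these values was not tested.

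Growth factor signalling changed at several receptors and ligands. On the list of receptor tyrosine kinases and their ligands 20 of 32 tested members rose (62.5%) and 7 fell (21.9%), and 7 rose and 1 fell by 2-fold or more, with a median of 0.56. Ddr2 (ENSMUSG00000026674.5, chromosome 1, 169972307 to 170110762), the receptor kinase that fibrillar collagen activates, stood at 3.93, 3.47 and 3.55 CPM in control and at 86.1, 81.4 and 88.5 CPM in the libraries labelled TAZ4A (log2 fold change 4.37 ± 0.07, adjusted p = 1.4e-17). Nrg1, the neuregulin that activates ErbB receptors, stood at 9.96, 7.86 and 10.1 CPM in control and at 49.2, 47.3 and 49.5 CPM in the libraries labelled TAZ4A (log2 fold change 2.33 ± 0.08, adjusted p = 2.5e-13). Gas6, the ligand of Axl, rose from 2.31 ± 0.0269 to 8.05 ± 0.766 CPM, so that receptor and ligand were both higher. Pdgfa rose from 30.5 ± 0.756 to 90.4 ± 1.76 CPM, Ereg, epiregulin, from 27.6 ± 2.26 to 68.3 ± 3.71 CPM, Igf1r from 9.7 ± 0.561 to 19.3 ± 0.163 CPM and the scatter factor receptor Met from 35.2 ± 2.4 to 66.3 ± 2.44 CPM. Igf1 fell from 45.4 ± 1.42 to 27.5 ± 0.307 CPM, Ephb4 from 225 ± 4.15 to 155 ± 6.46 CPM and Fgfr1 from 67.3 ± 2.82 to 48.7 ± 2.3 CPM. Igf2bp1, an RNA-binding protein of embryonic tissue, stood at 0.67, 0.954 and 0.788 CPM in control and at 13.1, 13.9 and 12.7 CPM in the libraries labelled TAZ4A (log2 fold change 3.40 ± 0.11, adjusted p = 7.5e-14).

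In the TGF-beta and BMP pathway 13 of 38 tested members rose (34.2%) and 19 fell (50%), and 4 rose and 1 fell by 2-fold or more. Secreted modulators rose by the largest folds. Inhba, the activin A subunit that follistatin binds, stood at 0.357, 0.52 and 0.728 CPM in control and at 9.2, 8.26 and 9.19 CPM in the libraries labelled TAZ4A (log2 fold change 3.19 ± 0.13, adjusted p = 2.1e-12). Bmper, an extracellular regulator of BMPs, stood at 3.75, 2.95 and 2.67 CPM in control and at 13.2, 13.6 and 13.8 CPM in the libraries labelled TAZ4A (log2 fold change 1.97 ± 0.10, adjusted p = 5.3e-11). Gdf15 rose from 32.9 ± 0.665 to 70.3 ± 4.99 CPM, Bmp4 from 214 ± 6.13 to 352 ± 5.78 CPM and Tgfb2 from 38.6 ± 1.87 to 68.4 ± 1.57 CPM. Smad1, which carries the BMP signal to the nucleus, stood at 502, 482 and 495 CPM in control and at 228, 224 and 225 CPM in the libraries labelled TAZ4A (log2 fold change -1.13 ± 0.04, adjusted p = 7.6e-13). Id2, one of its targets, fell from 18.9 ± 1.31 to 9.49 ± 0.617 CPM. Of the Wnt genes 12 of 25 tested members rose (48%) and 7 fell (28%), or 9 and 3 on the TPM scale, with Tspan12, a co-activator of Norrin signalling, from 2.32 ± 0.275 to 5.57 ± 0.408 CPM and Frzb, a secreted antagonist, from 59.4 ± 2.18 to 113 ± 2.69 CPM among the rises.

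Immediate early genes, which respond within minutes to MAP kinase activity and to flow, leaned lower. On the list of FOS, JUN, EGR and other immediate early genes 8 of 32 tested members rose (25%) and 20 fell (62.5%), and 0 rose and 5 fell by 2-fold or more (15.6% lower against 1.53% of all genes). Nr4a1, an orphan nuclear receptor, stood at 97.8, 96.2 and 93.9 CPM in control and at 27.8, 29.9 and 29.3 CPM in the libraries labelled TAZ4A (log2 fold change -1.71 ± 0.05, adjusted p = 3.6e-14). Klf10 stood at 259.6, 263 and 276 CPM in control and at 103, 102 and 104 CPM in the libraries labelled TAZ4A (log2 fold change -1.36 ± 0.04, adjusted p = 1.3e-13). Nr4a2 fell from 14.1 ± 0.752 to 3.1 ± 0.276 CPM. Klf2, the factor that laminar flow induces in endothelium, fell from 326 ± 6.9 to 169.7 ± 3.9 CPM, Fos from 81 ± 2.4 to 48.8 ± 0.667 CPM and Fosb from 24.8 ± 2.5 to 5.15 ± 0.363 CPM. Fosl1, Maff and Myc were the other way, rising from 85.5 ± 3.73 to 113 ± 2.58 CPM, from 31.4 ± 1.05 to 54.9 ± 0.675 CPM and from 92.6 ± 1.07 to 122 ± 1.88 CPM. Counted by symbol, 10 of 13 tested Klf genes fell (76.9%) and 2 rose (15.4%). Of the MAP kinase feedback genes 10 of 25 tested members rose (40%) and 12 fell (48%): Dusp14, a phosphatase, rose from 10.05 ± 0.372 to 27.5 ± 0.0507 CPM and Ier3 from 94.5 ± 6.92 to 211 ± 11.9 CPM. Spry4 fell from 22.3 ± 1.69 to 12.3 ± 0.721 CPM and Dusp6, the phosphatase of ERK, from 134 ± 1.77 to 85.1 ± 1.42 CPM.

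Guidance cues, which steer axons and vessel tips alike, changed in both directions (19 of 40 tested members rose (47.5%) and 16 fell (40%), or 15 and 19 under quantile normalization), and 7 rose and 2 fell by 2-fold or more. Sema3c (ENSMUSG00000028780.9, chromosome 5, 17574281 to 17730268), a secreted semaphorin, stood at 0.58, 0.231 and 0.455 CPM in control and at 18.6, 17.9 and 20.7 CPM in the libraries labelled TAZ4A (log2 fold change 4.42 ± 0.13, adjusted p = 3.7e-14). Slit2, the ligand of Robo receptors, stood at 26.5, 26.1 and 31.2 CPM in control and at 89.7, 87.9 and 89.6 CPM in the libraries labelled TAZ4A (log2 fold change 1.66 ± 0.06, adjusted p = 7.8e-13). Robo4, the endothelial member of those receptors, fell from 745 ± 6.94 to 451 ± 21.3 CPM. Sema3a rose from 14.1 ± 1.39 to 33.2 ± 2.08 CPM and the ephrin receptor Epha7 from 4.82 ± 0.192 to 17.9 ± 1.19 CPM. Plxna4, Sema6d and Neo1 fell from 7.86 ± 0.91 to 2.47 ± 0.39 CPM, from 63.8 ± 5.66 to 29.8 ± 1.49 CPM and from 947 ± 53.4 to 505 ± 6.82 CPM. Of the RND proteins, small GTP-binding proteins of the cytoskeleton, Rnd1 rose from 36.5 ± 2.21 to 139 ± 2.91 CPM and Rnd3 from 23.8 ± 1.59 to 88 ± 1.2 CPM, as did the activating protein Arhgap28 from 13.6 ± 1.1 to 61.5 ± 0.682 CPM. Arhgef3, an exchange factor, stood at 145, 148 and 151 CPM in control and at 54.2, 52.7 and 53.2 CPM in the libraries labelled TAZ4A (log2 fold change -1.46 ± 0.05, adjusted p = 7.2e-14). The endothelial exchange factor Arhgef15 fell from 278 ± 5.6 to 157 ± 5.98 CPM. Rnd2 went against its relatives and fell from 10.1 ± 1.19 to 6.2 ± 0.313 CPM.

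Of the G protein coupled receptors and RGS proteins 9 of 29 tested members rose (31%) and 15 fell (51.7%), and 4 rose and 5 fell by 2-fold or more. Rgs16, which shortens G protein signals, stood at 36.8, 38.2 and 38.3 CPM in control and at 172, 173 and 165 CPM in the libraries labelled TAZ4A (log2 fold change 2.16 ± 0.05, adjusted p = 1.1e-15). Ackr3, the scavenging receptor of Cxcl12, stood at 32.3, 31.7 and 31.1 CPM in control and at 9.32, 10.4 and 8.81 CPM in the libraries labelled TAZ4A (log2 fold change -1.69 ± 0.07, adjusted p = 1.9e-12). F2rl3, a thrombin receptor, fell from 57.2 ± 2.35 to 27.6 ± 0.893 CPM, and S1pr4, a receptor of sphingosine 1-phosphate, from 5.6 ± 0.742 to 0.916 ± 0.20 CPM.

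Immune genes also rose on lists other than the chemokine and interferon ones. Whether genes on those other lists respond to interferon was not tested. On the complement list 13 of 18 tested members rose (72.2%) and 3 fell (16.7%), and 10 rose and 0 fell by 2-fold or more, with a median of 1.05. Cfb, factor B of the alternative pathway, stood at 0.893, 0.665 and 0.697 CPM in control and at 5.19, 5.83 and 5.93 CPM in the libraries labelled TAZ4A (log2 fold change 2.30 ± 0.12, adjusted p = 3.9e-11). Masp1, a protease of the lectin pathway, rose from 0.0447 ± 0.0159 to 4.0 ± 0.258 CPM, C4b from 0.0501 ± 0.0634 to 1.73 ± 0.146 CPM and C2 from 1.13 ± 0.193 to 2.95 ± 0.123 CPM. Regulators that protect cells rose too, Clu, clusterin, from 18.7 ± 0.922 to 48.7 ± 1.84 CPM and Cd55 from 5.1 ± 0.44 to 12.4 ± 0.643 CPM. Cr1l fell from 174 ± 3.55 to 130.3 ± 5.59 CPM. C1s1 and C1s2, and C4a and C4b, are near copies whose reads may have been divided by the counting. Of the acute-phase and antiprotease genes 14 of 19 tested members rose (73.7%) and 3 fell (15.8%), among them Serpina3g (from 10.62 ± 0.238 to 103 ± 3.25 CPM) and Serpina3n (from 0.277 ± 0.147 to 4.38 ± 0.594 CPM), members of a cluster of close copies. The ferritin chains Fth1 and Ftl1 fell from 2729.7 ± 179 to 2091 ± 6.96 CPM and from 944 ± 59.5 to 684 ± 32.6 CPM. The transferrin receptor Tfrc rose from 182 ± 9.0 to 307 ± 11.7 CPM. Wfdc17, a small antiprotease of the same family as Slpi, had 4 and 3013 reads in control and TAZ4A libraries and reached 29.5 ± 2.5 CPM.

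Genes of MHC class I presentation were mostly higher, with 15 rises (68.2%) and 1 fall (4.55%) among 22 tested members, and 8 rose and 0 fell by 2-fold or more. Nlrc5, the trans-activator of class I genes, stood at 11, 10.2 and 11.5 CPM in control and at 51.4, 52 and 53.4 CPM in the libraries labelled TAZ4A (log2 fold change 2.21 ± 0.06, adjusted p = 1.9e-14). B2m, the invariant light chain, stood at 989, 964 and 909 CPM in control and at 2036, 2004 and 2106 CPM in the libraries labelled TAZ4A (log2 fold change 1.10 ± 0.04, adjusted p = 2.1e-12). H2-K1 rose from 97.5 ± 5.9 to 387 ± 12 CPM and H2-D1 from 283 ± 12.2 to 552 ± 13.5 CPM, with the limit that class I heavy chains are similar in sequence. Psmb8 and Psmb9 of the immunoproteasome rose from 21.8 ± 1.46 to 56.2 ± 2.34 CPM and from 3.48 ± 0.469 to 8.71 ± 1.05 CPM and the peptide transporter Tap1 from 27.5 ± 0.115 to 67.4 ± 3.13 CPM. Canx, the chaperone calnexin, was not called (log2 fold change 0.06, 95% interval -0.03 to 0.15).

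Cytokines and their receptors followed with 23 rises (67.6%) and 8 falls (23.5%) among 34 tested members, and 12 rose and 0 fell by 2-fold or more. Csf1, the growth factor of macrophages, stood at 57.8, 58 and 59.7 CPM in control and at 448, 445 and 430.5 CPM in the libraries labelled TAZ4A (log2 fold change 2.90 ± 0.04, adjusted p = 1.4e-17). Il4ra, the shared receptor chain for interleukins 4 and 13, stood at 7.1, 7.54 and 7.31 CPM in control and at 45.2, 45.5 and 43.7 CPM in the libraries labelled TAZ4A (log2 fold change 2.54 ± 0.06, adjusted p = 3.3e-15). Osmr, the receptor of oncostatin M, stood at 12.2, 12.1 and 14.5 CPM in control and at 63, 60.4 and 64.9 CPM in the libraries labelled TAZ4A (log2 fold change 2.24 ± 0.07, adjusted p = 5.8e-14). Lif, of the same cytokine family, rose from 0.724 ± 0.134 to 5.3 ± 0.467 CPM. Tnfsf18, the ligand of GITR, stood at 0.357, 0.173 and 0.516 CPM in control and at 7.49, 6.82 and 8.27 CPM in the libraries labelled TAZ4A (log2 fold change 3.26 ± 0.14, adjusted p = 5.8e-12). Il1rl1, the receptor of interleukin 33, had 1 and 194 reads in control and TAZ4A libraries. Receptors of tumor necrosis factor, interleukin 10 and interferon fell, Tnfrsf1a from 269 ± 7.1 to 191 ± 8.04 CPM, Il10rb from 87.1 ± 4.35 to 57.4 ± 1.66 CPM and Ifnar1 from 156 ± 10.1 to 116 ± 3.59 CPM. Blood cell genes gave 11 rises (52.4%) and 7 falls (33.3%) among 21 tested members: Pf4, platelet factor 4, stood at 0.625, 0.405 and 0.546 CPM in control and at 7.64, 7.41 and 8.01 CPM in the libraries labelled TAZ4A (log2 fold change 3.00 ± 0.11, adjusted p = 1.0e-12). Lcp2, the adaptor SLP-76, rose from 1.26 ± 0.115 to 9.77 ± 0.17 CPM and the beta 2 integrin Itgb2 from 3.97 ± 0.425 to 10.1 ± 0.46 CPM. Other members of that list came up from the floor. Siglecg, an inhibitory receptor of B cells, had 1 and 2351 reads in control and TAZ4A libraries, Lyz2, the lysozyme of macrophages, 2 and 174 reads and Clec4e, a macrophage lectin, 0 and 57 reads. Ptprc, Spi1 and Csf1r, which define leukocytes, held 7 and 5 reads, 3 and 2 reads and 1 and 11 reads, all under 1 CPM. Of the macrophage and leukocyte markers 3 were tested: Cd68 and Cd14 fell, and Lyz2, which passed the filter through the libraries labelled TAZ4A alone, rose. The part of such cells in these values was not tested. The 8 macrophage and leukocyte markers, whose sum is mostly Cd68, stood at 438.2 to 504.9 CPM in control against 383.6 to 392.6 CPM in the libraries labelled TAZ4A.

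Keratins and other epithelial genes were few but changed strongly, with 9 rises (64.3%) and 4 falls (28.6%) among 14 tested members, and 8 rose and 0 fell by 2-fold or more (57.1% against 4.98% of all genes). Several members were low, and low genes rose more often in general. By 2-fold or more 12.8% of all tested genes under 1 CPM rose, and 12.7% of those between 1 and 5 CPM. Krt19, a keratin of simple epithelia and mesothelium, stood at 0.536, 0.52 and 0.425 CPM in control and at 8.84, 9.73 and 7.71 CPM in the libraries labelled TAZ4A (log2 fold change 3.22 ± 0.12, adjusted p = 4.9e-13). Msln, mesothelin, stood at 1.16, 1.24 and 0.97 CPM in control and at 18.2, 18.2 and 16.7 CPM in the libraries labelled TAZ4A (log2 fold change 3.49 ± 0.10, adjusted p = 2.2e-14). Upk3b, a plaque protein that mesothelium shares, had 1 and 299 reads in control and TAZ4A libraries. Upk3b passed the filter through the libraries labelled TAZ4A alone, as did Anxa8 and Grhl2, given next, and Ly6d, with 2 control reads. Their rises were a condition of their being tested, and they are among the 8 of 2-fold or more. Sprr1a, an envelope protein of stressed keratinocytes, rose from 30.6 ± 1.23 to 81.3 ± 1.65 CPM, Anxa8 from 0.223 ± 0.085 to 3.85 ± 0.227 CPM and Grhl2, an epithelial transcription factor, from 0.194 ± 0.121 to 1.25 ± 0.0585 CPM. The called members named here are all risers, and the 4 that fell, none by 2-fold, are not named. Of 7 epithelial markers 4 were tested, of which 2 rose (50%) and 2 fell (50%). The summed level of the 7 markers was 23.97 to 27.34 CPM in control against 30.1 to 33.1 CPM in the libraries labelled TAZ4A. Cdh1, the E-cadherin that defines epithelium, held 4 and 1 reads in control and TAZ4A libraries, and Krt8 and Cldn3 stayed under 1 CPM in both groups. The part of other cell types in the epithelial values was not tested.

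Among metabolic lists few genes passed 2-fold. In cholesterol synthesis 3 of 28 tested members rose (10.7%) and 22 fell (78.6%), with a median of -0.48. Fdps, farnesyl diphosphate synthase, fell from 48.6 ± 2.68 to 26.2 ± 0.934 CPM, Sqle, squalene epoxidase, from 84.6 ± 6.53 to 51.6 ± 0.57 CPM, Cyp51 from 58.5 ± 2.23 to 37.3 ± 1.79 CPM and the lipid carrier Stard4 from 104 ± 3.69 to 53.9 ± 3.13 CPM. Insig2, Sc5d and Hsd17b7 were the 3 that rose. Lipid handling otherwise had no shared direction, with 12 rises (30%) and 18 falls (45%) among 40 tested members: Gpihbp1, which holds lipoprotein lipase on capillaries, stood at 89.1, 90.1 and 75.1 CPM in control and at 27.7, 28.4 and 26.7 CPM in the libraries labelled TAZ4A (log2 fold change -1.60 ± 0.06, adjusted p = 2.1e-12). Angptl4, an inhibitor of that lipase, stood at 14.8, 18.4 and 16.3 CPM in control and at 56.4, 58.4 and 53.9 CPM in the libraries labelled TAZ4A (log2 fold change 1.74 ± 0.07, adjusted p = 1.7e-12). Fads3, a desaturase relative, rose from 27 ± 1.66 to 75.1 ± 0.945 CPM and Agpat2 from 5.5 ± 0.628 to 15.2 ± 0.633 CPM.

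Lysosomal and autophagy genes fell in 29 of 45 tested members (64.4%) and rose in 1 (2.22%), with a median of -0.29. Ctsd, the protease cathepsin D, stood at 1697, 1833 and 1562 CPM in control and at 792, 797 and 744 CPM in the libraries labelled TAZ4A (log2 fold change -1.12 ± 0.05, adjusted p = 2.1e-11). Ctsh fell from 140.2 ± 9.0 to 66.1 ± 0.637 CPM, Lamp1 from 1171 ± 31.6 to 794 ± 6.49 CPM and the autophagosome protein Map1lc3b from 88.9 ± 8.6 to 56.1 ± 1.96 CPM. Gaa, acid glucosidase, was the one that rose (from 157 ± 1.5 to 196 ± 13.6 CPM). With libraries scaled to the same sum 27 members fell and 2 rose.

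On the NRF2 antioxidant list 7 of 34 tested members rose (20.6%) and 23 fell (67.6%), with a median of -0.28. Nqo1, the quinone reductase, stood at 281, 269 and 277 CPM in control and at 63.3, 64.9 and 66 CPM in the libraries labelled TAZ4A (log2 fold change -2.08 ± 0.04, adjusted p = 9.8e-16). Hmox1, heme oxygenase 1, fell from 556 ± 38.3 to 296 ± 6.39 CPM, Srxn1, sulfiredoxin, from 312 ± 11.2 to 172 ± 1.81 CPM, and Gclc and Gclm, which make glutathione, from 77.5 ± 3.34 to 43.5 ± 1.87 CPM and from 141 ± 3.09 to 96.6 ± 5.03 CPM. Not every target fell, since Txnrd1 rose from 337 ± 20.9 to 382 ± 5.39 CPM and the cystine carrier Slc7a11 from 19.1 ± 1.29 to 24 ± 0.844 CPM, and Nfe2l2, the gene of NRF2, was not called (log2 fold change 0.09). Sod3, extracellular superoxide dismutase, stood at 1.07, 1.07 and 1.15 CPM in control and at 6.03, 6.48 and 5.93 CPM in the libraries labelled TAZ4A (log2 fold change 2.06 ± 0.10, adjusted p = 3.6e-11).

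Glycolytic genes gave 16 rises (47.1%) and 11 falls (32.4%) among 34 tested members, or 18 and 7 with libraries scaled to the same sum, with rises at Pfkfb3, which makes the activator of phosphofructokinase, (from 11.8 ± 0.571 to 30.7 ± 1.74 CPM), Pfkp (from 19.2 ± 0.905 to 36.2 ± 0.801 CPM), Ldha (from 583 ± 14.5 to 993 ± 23.4 CPM) and Eno1 (from 185 ± 20.4 to 280.2 ± 13.8 CPM). The pentose phosphate enzymes Pgd, Tkt and Taldo1 fell from 152 ± 4.45 to 117 ± 1.54 CPM, from 263 ± 17.7 to 218 ± 10.9 CPM and from 270.0 ± 17.2 to 224 ± 7.91 CPM, as did the glucose carrier Slc2a1 from 469 ± 13.5 to 386 ± 5.19 CPM. Of the hypoxia response genes 14 of 28 tested members rose (50%) and 8 fell (28.6%). Epas1, the HIF-2 alpha gene of endothelium, stood at 57.9, 56.2 and 60.7 CPM in control and at 20.9, 21.6 and 19.7 CPM in the libraries labelled TAZ4A (log2 fold change -1.47 ± 0.06, adjusted p = 9.7e-13). Bhlhe40 fell from 77.7 ± 2.33 to 33.4 ± 0.0894 CPM while its relative Bhlhe41 rose from 6.67 ± 0.567 to 26.4 ± 1.25 CPM. Plod2, a collagen lysyl hydroxylase, rose from 17 ± 1.02 to 45.3 ± 1.13 CPM. The list of nuclear genes of the respiratory chain, which also holds the regulator Ppargc1a, moved little. It had 11 rises (22%) and 5 falls (10%) among 50 tested members, none by 2-fold. With libraries scaled to the same sum the counts were 16 and 2. All 50 lay between log2 fold changes of -0.35 (Ndufa4) and 0.35 (Ppargc1a). None of the 16 tested genes of the mitochondrial genome rose and 9 fell (56.2%), with a median log2 fold change of -0.42, while 1.01% to 1.08% of reads in the libraries labelled TAZ4A and 1.02% to 1.16% in control lay on that genome.

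On the list of amino acid and unfolded protein response genes 29 of 44 tested members rose (65.9%) and 5 fell (11.4%), with Asns, asparagine synthetase, from 52.6 ± 0.873 to 88 ± 1.26 CPM, Psph, the last enzyme of serine synthesis, from 28.5 ± 1.21 to 48.5 ± 1.42 CPM, and the transcription factor Cebpb from 7.09 ± 1.56 to 15.7 ± 1.16 CPM. Of the genes of the endoplasmic reticulum branch Edem1 fell from 363 ± 11.1 to 269.8 ± 8.54 CPM and Dnajb9 from 68.9 ± 3.33 to 53 ± 1.43 CPM. Ribosome biogenesis leaned higher without large folds, with 26 rises (70.3%) and 5 falls (13.5%) among 37 tested members, or 26 and 2 with libraries scaled to the same sum, none by 2-fold, with Nop58 from 143 ± 8.72 to 221 ± 9.65 CPM, Dkc1 from 88.1 ± 3.57 to 125 ± 4.56 CPM and Fbl from 20.1 ± 2.24 to 27.2 ± 3.0 CPM of the snoRNA particles. Of 96 tested snoRNA genes, which lie mostly inside introns of other genes, 26 rose (27.1%), close to the 27.7% of all tested genes, and 1 fell (1.04%, against 29.5%). The elongation factor Eef2 fell from 3934 ± 73 to 3401 ± 165 CPM, and under quantile normalization its log2 fold change was 0.06.

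Proliferation genes changed little in size. Mitotic genes gave 6 rises (11.5%) and 16 falls (30.8%) among 52 tested members, none by 2-fold. The share of falls was close to the 29.5% of all tested genes and that of rises below 27.7%, and the balance turned to 13 higher and 8 lower with libraries scaled to the same sum and to 12 and 9 under quantile normalization. Replication genes gave 7 rises (13%) and 23 falls (42.6%) among 54 tested members. Mcm6, a subunit of the replicative helicase, stood at 878, 951 and 956 CPM in control and at 594, 581 and 594 CPM in the libraries labelled TAZ4A (log2 fold change -0.65 ± 0.04, adjusted p = 2.1e-09). Ctps, CTP synthase, stood at 294, 309.8 and 315 CPM in control and at 721, 711 and 720.5 CPM in the libraries labelled TAZ4A (log2 fold change 1.23 ± 0.04, adjusted p = 3.9e-13). Rrm2, of ribonucleotide reductase, rose from 290.0 ± 10.46 to 414 ± 4.14 CPM. Of the G1 cyclins and CDKs 8 of 31 tested members rose (25.8%) and 9 fell (29%), close to the shares of all tested genes (27.7% and 29.5%), or 10 and 9 with libraries scaled to the same sum. Ccnd2, cyclin D2, stood at 53.3, 54.6 and 56.4 CPM in control and at 169, 162 and 166 CPM in the libraries labelled TAZ4A (log2 fold change 1.59 ± 0.05, adjusted p = 3.6e-14). Its kinase partner Cdk6 rose from 7.59 ± 1.24 to 15.9 ± 0.389 CPM. Mxd4, an antagonist of MYC, stood at 97.9, 88.1 and 92.9 CPM in control and at 41.4, 41.8 and 42.9 CPM in the libraries labelled TAZ4A (log2 fold change -1.13 ± 0.05, adjusted p = 8.9e-12). The CDK inhibitors Cdkn2b and Cdkn2c fell from 41.8 ± 0.569 to 24.5 ± 0.881 CPM and from 158 ± 5.74 to 111 ± 1.52 CPM. Among p53 and apoptosis genes 22 of 43 tested members rose (51.2%) and 8 fell (18.6%), or 25 and 5 with libraries scaled to the same sum, with Mdm2, the ligase of p53, from 123 ± 7.25 to 259.9 ± 6.02 CPM and Ccng1 from 141 ± 8.08 to 270.3 ± 3.87 CPM. Bcl2l11, the death activator BIM, stood at 292, 257 and 280.1 CPM in control and at 107, 107 and 109 CPM in the libraries labelled TAZ4A (log2 fold change -1.35 ± 0.05, adjusted p = 6.9e-13). Pmaip1, the death activator NOXA, rose from 0.366 ± 0.0701 to 4.26 ± 0.509 CPM. Casp4, the caspase of inflammasomes, rose from 29.7 ± 2.25 to 67.6 ± 0.33 CPM.

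Of the ion channels and pumps 10 of 43 tested members rose (23.3%) and 23 fell (53.5%), with a median of -0.22, the falls including Orai2 (from 136 ± 0.717 to 67.9 ± 0.86 CPM) and Kcnq1 (from 25 ± 0.682 to 12.6 ± 0.657 CPM) and the rises the sodium pump subunit Atp1b1 (from 35 ± 1.73 to 105 ± 1.42 CPM) and the calcium pump Atp2b4 (from 4.84 ± 0.0714 to 11 ± 0.639 CPM). Kcnab1, a potassium channel subunit, stood at 0.0446, 0.0289 and 0.0606 CPM in control and at 7.73, 7.61 and 7.62 CPM in the libraries labelled TAZ4A (log2 fold change 3.90 ± 0.11, adjusted p = 3.7e-14). Kcnab1 passed the filter through the libraries labelled TAZ4A alone, so its direction was set by the filter. Ttyh1, a membrane protein of the tweety family, stood at 25.8, 24.4 and 25.9 CPM in control and at 2.67, 2.04 and 2.46 CPM in the libraries labelled TAZ4A (log2 fold change -3.17 ± 0.09, adjusted p = 2.9e-14). Slco2b1, an organic anion transporter, stood at 12.5, 12 and 11.8 CPM in control and at 1.29, 1.58 and 1.19 CPM in the libraries labelled TAZ4A (log2 fold change -2.77 ± 0.10, adjusted p = 6.5e-13). Slco4a1, of the same family, fell from 93.5 ± 6.11 to 26.6 ± 0.789 CPM. Slco3a1 rose from 62.6 ± 2.49 to 134 ± 1.16 CPM. Of the neuronal genes 14 of 25 tested members rose (56%) and 9 fell (36%). Gria3, an AMPA receptor subunit, stood at 14.3, 14.4 and 13.9 CPM in control and at 56.7, 53.6 and 57.5 CPM in the libraries labelled TAZ4A (log2 fold change 1.94 ± 0.05, adjusted p = 2.9e-14). Bdnf rose from 5.14 ± 0.388 to 15 ± 1.02 CPM. The neurexin Nrxn2 fell from 13.3 ± 0.942 to 1.58 ± 0.224 CPM. Caveolar and endocytic genes gave 6 rises (18.8%) and 19 falls (59.4%) among 32 tested members, with Cavin1 and Ehd2 of the caveolar coat lower (from 574 ± 24.3 to 369.5 ± 5.93 CPM and from 437 ± 5.21 to 274 ± 5.51 CPM) and Cavin2 higher (from 115 ± 5.75 to 151 ± 1.99 CPM).

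Regulators of development and chromatin contributed few large changes. Of the developmental transcription factors 16 of 46 tested members rose (34.8%) and 15 fell (32.6%) (14 and 18 under quantile normalization), with Runx1, a factor of blood formation, from 13.1 ± 0.346 to 30.0 ± 1.06 CPM and Zfpm2, a partner of GATA proteins, from 59.8 ± 5.06 to 133 ± 2.53 CPM among the rises and Tbx3 from 26.8 ± 0.394 to 13.1 ± 0.568 CPM and Hoxb5 from 11.3 ± 0.392 to 5.1 ± 0.159 CPM among the falls. Of the chromatin regulators 14 of 57 tested members rose (24.6%) and 17 fell (29.8%), close to the 27.7% and 29.5% of all tested genes, or 17 and 14 with libraries scaled to the same sum. Prdm1, the repressor BLIMP1, stood at 15.3, 16.2 and 17.5 CPM in control and at 3.69, 3.4 and 4.74 CPM in the libraries labelled TAZ4A (log2 fold change -1.93 ± 0.10, adjusted p = 7.4e-11). Kdm5b, a histone demethylase, stood at 7.54, 6.59 and 7.31 CPM in control and at 19.1, 20.6 and 21.3 CPM in the libraries labelled TAZ4A (log2 fold change 1.45 ± 0.07, adjusted p = 5.2e-11). The histone deacetylase Hdac9 fell from 11.4 ± 0.532 to 5.49 ± 0.546 CPM. Imprinted genes rose in 13 of 21 tested members (61.9%) and fell in 4 (19%), and 7 rose and 1 fell by 2-fold or more. Peg10 rose from 0.493 ± 0.126 to 3.54 ± 0.227 CPM, Magel2 from 0.124 ± 0.0873 to 2.11 ± 0.449 CPM and Grb10, an adaptor of insulin signalling, from 18.4 ± 0.692 to 38.6 ± 0.92 CPM. H19 stood at 2.86, 2.6 and 2.7 CPM in control and at 0.36, 0.226 and 0.415 CPM in the libraries labelled TAZ4A (log2 fold change -1.95 ± 0.13, adjusted p = 1.6e-09). H19 passed the filter through the control libraries alone, so its direction was set by the filter. Mest fell from 472 ± 12.3 to 245 ± 5.94 CPM. Rtl8a and Rtl8b, near-identical genes of retroelement origin, fell from 84.5 ± 3.74 to 11.1 ± 1.48 CPM and from 197 ± 26.4 to 28.4 ± 1.82 CPM, and reads may have been divided between them. Fry, a large scaffold of the NDR kinases, stood at 45.4, 42.6 and 48.2 CPM in control and at 8.06, 8.86 and 8.36 CPM in the libraries labelled TAZ4A (log2 fold change -2.36 ± 0.07, adjusted p = 2.2e-14). Tmem204, an endothelial membrane protein, fell from 32.7 ± 1.19 to 6.53 ± 0.347 CPM. Ptprq, a receptor phosphatase, stood at 0.134, 0.0578 and 0.0303 CPM in control and at 10.46, 11.3 and 11.6 CPM in the libraries labelled TAZ4A (log2 fold change 4.34 ± 0.12, adjusted p = 1.6e-14). Ptprq passed the filter through the libraries labelled TAZ4A alone, so its direction was set by the filter.

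The authors' deposited table of the same comparison listed 2110 genes higher and 1252 lower at a false discovery rate under 0.05. By their fold changes 1472 of these were higher and 403 lower by 2-fold or more. That table included 648 of the 650 risers and all 199 fallers of 2-fold or more found here.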

How the data were processed

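Poly-A RNA of MS1 cells was sequenced by the authors on an Illumina HiSeq instrument after preparation with a stranded kit, per the labels' protocols. The submitters' processing notes name bcl2fastq, FastQC, STAR, featureCounts and edgeR and the build mm10, with versions not given in the sources used here. Whether counting used strand is also not given, so overlapping and antisense genes, and near copies, are uncertain. The deposited gene values (GENCODE vM4, which the authors call CPM) are a signal, reads per gene over a scaled library size, and their sums differed between the groups. Each value was a whole multiple of that of a single read (100% within a tolerance of 0.01), so reads were recovered. The deposited TPM values served as an alternative. Counts from log2 fold changes and adjusted p-values in the authors' deposited comparison table are named as theirs.

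Groups came from the sample titles. The test was limma-trend with robust settings (limma 3.58.1, R 4.3.3) on log2(CPM + 0.5) for the 6 libraries alone, with a minimum of 0.5 CPM in 3 libraries, Benjamini-Hochberg adjustment over 13048 genes and a threshold of 0.05. A further count required 2-fold. The design assumed CPM and the test stayed as planned when the values were entered as signal. On simulated counts the same steps were checked for recovery of known changes. Symbols and coordinates are from GENCODE vM21 on GRCm38, the same assembly as mm10, for 23439 of the 23744 identifiers, and promoter sequences from RefSeq (GRCm38.p6).

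The comparison, its 61 gene lists (2361 entries, 2209 found in the table, 5 of them under another symbol) and the motifs were chosen with earlier results of these data known. Some listed genes were not analysed here, and some genes and a list that the counts include are not reported here. Of 534 genes singled out 427 follow a rule: the 15 largest rises and falls off the interferon and chemokine lists, the 10 largest gains and losses in CPM, up to 4 called members of a list in each direction and up to 3 with 3 reads or fewer in a group, all with libraries that did not overlap and, except for the last, at least 5 CPM, plus Wwtr1, Yap1, Camta1 and the TEAD genes. The others, such as Osmr, Masp1, Ldha and Rasip1, were named after their values were seen. Replicate numbers were not taken as pairs. Other settings tried were a pseudocount of 0.1 or 2, filtering at 2 CPM or not at all, other scalings, TPM, the iGenomes gene table of the authors, all 9 libraries, a replicate block, limma without trend, edgeR 4.0.16 and DESeq2 1.42.0 on recovered reads, and each library left out.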

Additional observations from a re-analysis of the deposited data

How the results depend on the processing

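The counts of genes past the threshold kept within 1.5 times of the values above except in 3 cases. With all 9 libraries in the fit 1686 genes were higher and 1497 lower. With a pseudocount of 2, which shrinks the change of low genes by construction, 352 genes rose by 2-fold or more. edgeR on recovered reads called 3681 higher and 3751 lower, with 849 and 288 past 2-fold, and DESeq2 3439 and 3392, with 852 and 295. Leaving out each library in turn gave 3037 to 3699 higher, 3230 to 3810 lower, 641 to 657 past 2-fold higher and 193 to 211 lower. The replicate numbers were not taken to pair the samples (correlations of same-numbered deviations 0.0426, 0.137 and 0.112, each the highest for its library), and the fit with the replicate number as a block gave 3845 higher and 4114 lower, with 650 and 199 past 2-fold. For the named genes 10172 of 10341 values kept direction and side of the threshold, 155 lost the call (96 with all 9 libraries), 9 gained it and 5 turned, all under quantile normalization: Pecam1 to 0.0212, Eef2 to 0.0553, Yap1 to 0.0126, Camta1 to -0.0108 and Sparc to 0.0298. The cause was not tested. Among counts of list members past 2-fold 108 of 2440 moved by over 1.5 times. For members called at any fold, scaling the libraries to the same sum moved the count of rises by that much in 2 of 54 lists and the count of falls in 7. The TPM values moved them in 1 and 10 lists and quantile normalization in 3 and 5. Depth leaves the control levels of the 55 genes with 3 or fewer control reads unresolved.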

Other observations

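Some families that no list covered were counted by symbol after their values were seen, beside 27.7% higher and 29.5% lower over all tested genes. Of 29 tested TBC1D genes, which switch off Rab GTPases of vesicle traffic, 18 fell (62.1%) and 4 rose (13.8%), or 15 and 6 with libraries scaled to the same sum. Tbc1d4, the substrate of AKT that holds back glucose carriers, fell from 40.3 ± 2.02 to 27 ± 0.242 CPM, while its closest relative Tbc1d1 rose from 54.8 ± 5.68 to 106 ± 0.486 CPM. Of 10 tested Galnt genes, which begin mucin-type sugar chains, 7 fell (70%) and 1 rose (10%), or 5 and 2 with libraries scaled to the same sum. Galnt15 fell from 8.18 ± 0.816 to 1.66 ± 0.141 CPM and Galnt18 from 77.2 ± 4.49 to 45.9 ± 1.45 CPM. Among 10 Utp genes of the small ribosomal subunit processome 7 rose (70%) and none fell, with Utp4 rising from 44.1 ± 1.34 to 55.3 ± 1.33 CPM. Of 12 Parp genes of the ADP-ribosyltransferase family 9 rose (75%) and 1 fell (8.33%), and Parp8 rose from 36.4 ± 0.717 to 76.1 ± 0.962 CPM. Zinc finger genes with the stem Zfp gave 98 higher of 338 (29%), close to the share of all genes, and 60 lower (17.8%), and 74 and 74 under quantile normalization.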
